A study of Mus musculus with 11 samples.

Results

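Melanosome structure and transport genes were followed gene by gene in whole skin of neonatal mice lacking regulatory T cells (Tregs). The 10 members were the rows named Pmel, Mlana, Gpr143, Trpm1, Rab38, Rab27a, Mlph, Myo5a, Bloc1s6 and Hps4 in a table of 49315 genes, and all 10 passed the filter on low counts that left 18375 genes for testing. They were divided by general knowledge into 5 melanocyte-restricted genes (Pmel, Mlana, Gpr143, Trpm1 and Rab38) and 5 genes that many cell types use (Rab27a, Mlph, Myo5a, Bloc1s6 and Hps4). The data came from 11 Foxp3-DTR mice on a C57BL/6J background, of both sexes, in which the Foxp3 locus drives the diphtheria toxin (DT) receptor, so that DT depletes Foxp3-expressing Tregs throughout the body and not in skin alone. Control mice (labelled PBS, n = 2) received PBS and kept their Tregs. DT at 30 ng per g was given on postnatal days (P) 6 and 8 to ΔETreg mice (EarlyDT, n = 3, harvested on P9), on P10 and P12 to ΔLTreg mice (LateDT, n = 3, harvested on P13) and on P6, P8, P10 and P12 to ΔTreg mice (FullDT, n = 3, harvested on P13). The labels give no harvest day for the 2 control mice, and the same 2 served in all comparisons with control, so age and treatment cannot be told apart there; ΔTreg and ΔLTreg skin had the same age.

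Melanosomes are the lysosome-related organelles in which melanocytes make and store melanin. An early melanosome is built on an internal sheet of amyloid fibrils made from the protein PMEL, and enzymes are then delivered to it by small Rab GTPases and by the BLOC and AP-3 sorting complexes. Mature melanosomes move to the cell edge on actin through a chain of RAB27A, melanophilin (MLPH) and myosin Va (MYO5A), and pass to the keratinocytes of skin and hair. Mouse coat colour mutants mark many of these steps, among them silver (Pmel), chocolate (Rab38), ashen (Rab27a), leaden (Mlph), dilute (Myo5a), pallid (Bloc1s6) and light ear (Hps4).

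Library totals ran from 23377571 to 34159435 counts, and the members had between 110 and 10426 counts in each library. Foxp3 itself had few counts, 9 to 19 in ΔTreg mice, 13 to 23 in ΔLTreg mice and 10 to 16 in ΔETreg mice beside 14 and 20 with Tregs present, so its RNA in whole skin did not separate the groups. Levels below are CPM, the read count of a gene scaled to a common library size after TMM, fold changes are edgeR estimates with their standard error (SE), and a gene was called at an adjusted p under 0.05 over all genes tested. Because skin was measured in bulk, fewer melanocytes and less RNA per melanocyte cannot be told apart in any value below.

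All 5 melanocyte-restricted genes were lower in ΔTreg than in control skin, with changes of -32.5% to -50.1%, while those of the 5 broadly used genes ran from -23.1% to 19.1%. Of the 10 members, 7 were called lower and 1 higher, against 9.39% of all genes called lower and 12.1% called higher. No member's values overlapped between ΔTreg and control mice, which held for 52.5% of all genes. The median log2 fold change was -0.90 over the restricted and -0.22 over the broad genes, beside -0.01 over all genes tested. The second control mouse was the higher of the 2 for 9 of the 10 members, and without it 1 control remains, so no calls are counted there. With 1 mouse of either group left out in turn, log2 fold changes ran from -1.01 to -0.79 for Pmel and -1.21 to -0.77 for Mlana. They ran from -1.08 to -0.61 for Gpr143, -1.03 to -0.85 for Trpm1 and -0.70 to -0.44 for Rab38. Those of Rab27a ran from -0.46 to -0.31, of Mlph from -0.47 to -0.29 and of Bloc1s6 from 0.21 to 0.29.

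Pmel, the fibril protein, lies on chromosome 10 (GRCm38, chr10:128704195-128720238, plus strand). It stood at 315 and 369 CPM in the control mice, at 207, 259 and 289 in ΔETreg mice, at 264, 287 and 311 in ΔLTreg and at 174, 182 and 194 in ΔTreg mice. Every depleted mouse was below both controls, and the ΔTreg mice were below all the others. The log2 fold change in ΔTreg against control was -0.90 (SE 0.13, adjusted p = 0.000527), and against ΔLTreg -0.65 (SE 0.11, adjusted p = 0.00266). Pmel shares 4.58% and 1.48% of its exon bases with Dgka and Cdk2 on the opposite strand, and the sources used here do not say whether counting used strand.

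Mlana encodes a small membrane protein that binds PMEL and takes part in its maturation (chr19:29697824-29708634, plus strand). Its level was 65.0 and 88.5 CPM in control, 46.4, 53.4 and 61.7 in ΔETreg mice, 66.8, 67.1 and 79.1 in ΔLTreg and 36.3, 38.4 and 40.1 in ΔTreg mice. ΔLTreg mice lay between the 2 controls, whereas the ΔETreg and ΔTreg mice lay below both. Mlana had the largest log2 fold change of the members in ΔTreg skin, -1.0 against control (SE 0.14, adjusted p = 0.000474) and -0.89 against ΔLTreg (SE 0.13, adjusted p = 0.00065).

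Gpr143, the ocular albinism receptor of the melanosome membrane, limits melanosome size (chrX:152781921-152808646, plus strand). It stood at 6.44 and 8.92 CPM in control, 5.23, 5.53 and 7.14 in ΔETreg mice, 5.72, 6.48 and 7.63 in ΔLTreg and 3.90, 4.13 and 4.72 in ΔTreg mice. Only the ΔTreg mice, of the depleted groups, were all below both controls. The log2 fold changes were -0.86 against control (SE 0.19, adjusted p = 0.00792) and -0.65 against ΔLTreg (SE 0.17, adjusted p = 0.0242), with wider errors than for the other restricted genes. The second value was no longer called without 1 of the ΔLTreg mice or either of 2 ΔTreg mice.

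Trpm1 encodes a cation channel that is abundant in melanocytes, and one of its introns holds the microRNA gene Mir211 (chr7:64153835-64269775, plus strand). It read 249 and 283 CPM in control, 174, 202 and 232 in ΔETreg mice, 214, 235 and 260 in ΔLTreg and 135, 138 and 142 in ΔTreg mice. The 3 ΔTreg mice lay close together and below all the others. Its log2 fold change was -0.94 against control (SE 0.11, adjusted p = 0.000185) and -0.77 against ΔLTreg (SE 0.10, adjusted p = 0.000421).

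Rab38, the chocolate gene, is a Rab GTPase that brings tyrosinase and TYRP1 to the maturing melanosome (chr7:88430273-88491572, plus strand). Its values were 31.1 and 37.3 CPM in control, 26.8, 29.4 and 32.6 in ΔETreg mice, 35.4, 36.4 and 38.0 in ΔLTreg and 22.0, 23.3 and 23.9 in ΔTreg mice. Unlike the mean of the other 4 restricted genes, that of Rab38 was highest in ΔLTreg skin, within the range of the controls or just above it. Rab38 showed the smallest fall of the restricted genes against control, -0.57 (SE 0.09, adjusted p = 0.00158), and a fall of similar size to the others against ΔLTreg, -0.67 (SE 0.09, adjusted p = 0.000335).

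**Figure D1:**
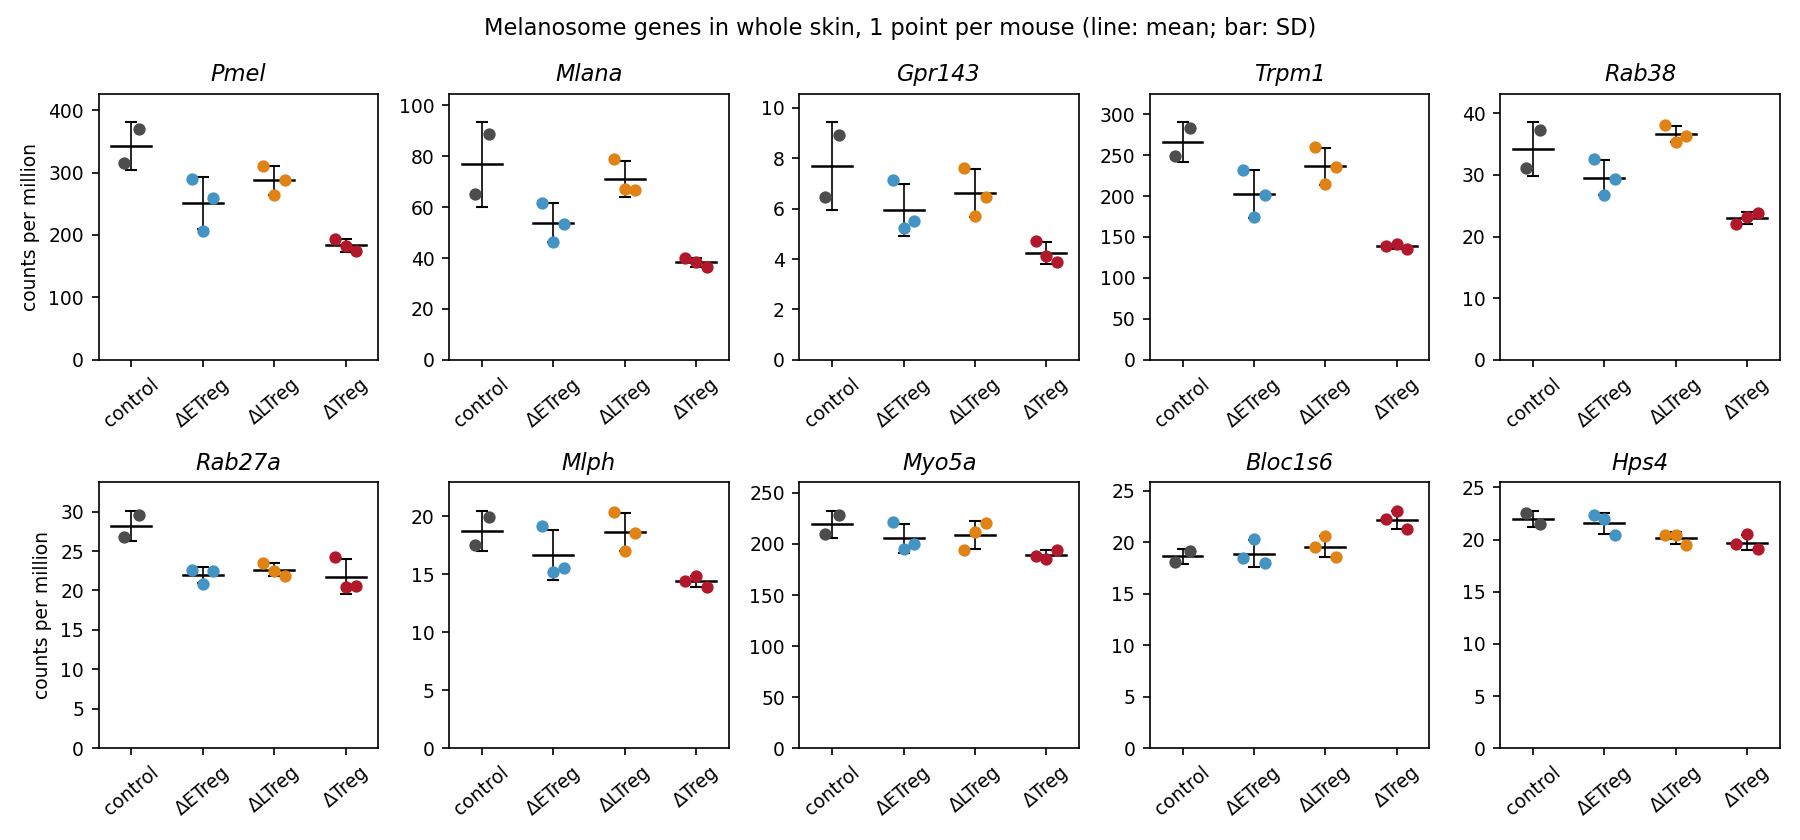
CPM of each member (vertical axes, each starting at 0) in control, ΔETreg, ΔLTreg and ΔTreg skin, with 1 point per mouse, the group mean as a line and the SD as a bar. The upper row holds the restricted genes, where ΔTreg mice sit lowest (Pmel 174 to 194 CPM against 315 and 369 in control); the lower row holds the broad genes, where Bloc1s6 sits highest in ΔTreg mice.

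Of the transport chain, Rab27a and Mlph were called lower in ΔTreg than in control skin and Myo5a was not, and only Mlph was called between ΔTreg and ΔLTreg skin. Rab27a, whose product sits on mature melanosomes and also on the secretory granules of cytotoxic lymphocytes, stood at 26.8 and 29.6 CPM in control mice (chr9:73044854-73097629, plus strand). It was at 20.8, 22.5 and 22.6 CPM in ΔETreg, at 21.9, 22.5 and 23.5 in ΔLTreg and at 20.5, 20.6 and 24.3 in ΔTreg mice. All 9 depleted mice were thus below both controls, and the 3 depleted groups overlapped each other. The log2 fold change against control was -0.38 in ΔTreg (SE 0.09, adjusted p = 0.0103), -0.32 in ΔLTreg (SE 0.09, adjusted p = 0.0646) and -0.36 in ΔETreg skin (SE 0.09, adjusted p = 0.808). ΔTreg differed from ΔLTreg skin by -0.06 (SE 0.08, adjusted p = 0.667). A processed pseudogene, Gm27186, lies on the same strand over 3.84% of the exon bases of Rab27a, so reads there are uncertain.

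Mlph, which links RAB27A to the myosin, lies on chromosome 1 (chr1:90915085-90951142, plus strand). Mlph was at 17.5 and 20.0 CPM in control, 15.3, 15.6 and 19.2 in ΔETreg mice, 17.1, 18.6 and 20.4 in ΔLTreg and 13.9, 14.4 and 14.8 in ΔTreg mice. ΔLTreg mice spanned the controls and ΔTreg mice lay below all others. The log2 fold change was -0.38 against control (SE 0.11, adjusted p = 0.0349) and -0.37 against ΔLTreg (SE 0.10, adjusted p = 0.0268). The first of these calls was lost with library size in place of TMM (adjusted p = 0.0728), and both were lost without any 1 of the ΔTreg mice.

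Myo5a, the actin motor that neurons and many other cells also use, lies on chromosome 9 (chr9:75071015-75223688, plus strand). It read 210 and 229 CPM in control, 195, 200 and 222 in ΔETreg mice, 194, 212 and 221 in ΔLTreg and 185, 188 and 194 in ΔTreg mice. ΔTreg mice were below both controls and overlapped the ΔLTreg mice. The log2 fold change of -0.22 against control (SE 0.07, adjusted p = 0.0599) was not called, though DESeq2 and edgeR fitted to these 2 groups alone called it (adjusted p = 0.0193 and 0.0313), as they did 18.0% and 22.4% of all genes with an adjusted p.

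Of the 2 biogenesis genes among the broad members, Bloc1s6 was called higher in ΔTreg than in control skin and Hps4 was not called. Bloc1s6, the pallid subunit of the sorting complex BLOC-1 (chr2:122738503-122749475, plus strand), was at 18.1 and 19.2 CPM in control, 18.0, 18.4 and 20.3 in ΔETreg mice, 18.6, 19.6 and 20.6 in ΔLTreg and 21.2, 22.3 and 23.0 in ΔTreg mice. ΔTreg mice were above every other mouse, with a log2 fold change of 0.25 against control (SE 0.08, adjusted p = 0.0413). That call was lost in most alternative fits, DESeq2 and sex as a covariate included. Hps4, a subunit of BLOC-3, the complex that activates RAB32 and RAB38 (chr5:112343083-112378414, plus strand), was at 21.5 and 22.6 CPM in control and 19.1, 19.6 and 20.5 in ΔTreg mice. It was at 20.4, 21.9 and 22.4 CPM in ΔETreg and 19.4, 20.4 and 20.4 in ΔLTreg mice. Its log2 fold change of -0.16 in ΔTreg against control was not called (SE 0.07, adjusted p = 0.118), and 3.37% of its exon bases are shared with the antisense gene Gm20636.

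Levels can be compared between genes only per exon length. On that scale, CPM per kilobase of annotated exon (RPKM), control skin held 149 ± 16.9 of Pmel and 72.6 ± 15.8 of Mlana (SD, n = 2). Rab38 followed at 21.7 ± 2.77, Trpm1 at 18.0 ± 1.65 and Myo5a at 14.8 ± 0.893 RPKM. Rab27a was at 7.27 ± 0.498, Hps4 at 5.58 ± 0.194, Bloc1s6 at 4.78 ± 0.191, Gpr143 at 3.85 ± 0.879 and Mlph at 3.50 ± 0.328 RPKM. In ΔTreg skin the RPKM of Pmel was 80.0 ± 4.38 and that of Mlana 36.2 ± 1.82 (SD, n = 3), still the 2 highest of the members. Trpm1 and Myo5a have long annotated exon sets (14746 and 14803 bases), which lowers their RPKM where most RNA comes from shorter transcripts.

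Harvested at the same age, ΔTreg and ΔLTreg mice differ by the doses on P6 and P8. All 5 restricted genes and Mlph were called lower in ΔTreg skin, 6 of 10 members against 6.11% of all genes, and none was called higher, against 10.7%. For these 6 the ΔTreg values lay wholly below the ΔLTreg values, which held for 16.7% of all genes. The median log2 fold change was -0.67 over the restricted genes, -0.06 over the broad genes and -0.00436 over all genes tested. Without any 1 mouse of either group 4 to 6 members remained called, with Pmel, Mlana, Trpm1 and Rab38 among them each time. Over all genes, 1987 of 18429 to 2942 of 18223 were called in those fits, in either direction.

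In ΔETreg against control skin no member was called. Of all genes, 0.00544% were called there by edgeR's quasi-likelihood test, and 0.0686% and 0.0523% of those with an adjusted p by DESeq2 on the 2 groups and on all libraries. At an unadjusted p under 0.05, Pmel, Mlana, Trpm1, Rab38 and Rab27a were lower, 5 of 10 members against 2.18% of all genes. Pmel, Mlana, Trpm1 and Rab27a were also wholly below the 2 controls, against 10.3% of all genes. The log2 fold changes of the restricted genes were -0.44 for Pmel (SE 0.13), -0.51 for Mlana (SE 0.14), -0.36 for Gpr143 (SE 0.19), -0.39 for Trpm1 (SE 0.11) and -0.21 for Rab38 (SE 0.09), all with an adjusted p of 0.9998. Without the first control mouse they were -0.72 for Mlana, -0.58 for Gpr143 and -0.34 for Rab38, and without the second -0.27, -0.11 and -0.07. Those of the broad genes other than Rab27a were -0.17 for Mlph, -0.09 for Myo5a, 0.02 for Bloc1s6 and -0.03 for Hps4. Keeping all genes with at least 1 count called Pmel, Mlana and Trpm1, and 0.151% of all genes.

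In ΔLTreg against control skin no member was called either, against 4.55% of all genes. At an unadjusted p under 0.05 only Rab27a of the 10 was lower, against 10.5% of all genes, and DESeq2 fitted to all libraries called it (adjusted p = 0.0376), as it did 7.73% of all genes with an adjusted p. Pmel, Rab27a and Hps4 were wholly below the controls, against 17.2% of all genes. The restricted genes had log2 fold changes against control of -0.25 for Pmel (SE 0.13), -0.11 for Mlana (SE 0.14), -0.21 for Gpr143 (SE 0.18), -0.17 for Trpm1 (SE 0.11) and 0.10 for Rab38 (SE 0.09). Hps4 was at -0.13 (SE 0.07), Myo5a at -0.07, Bloc1s6 at 0.07 and Mlph at -0.00409.

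**Figure D2:**
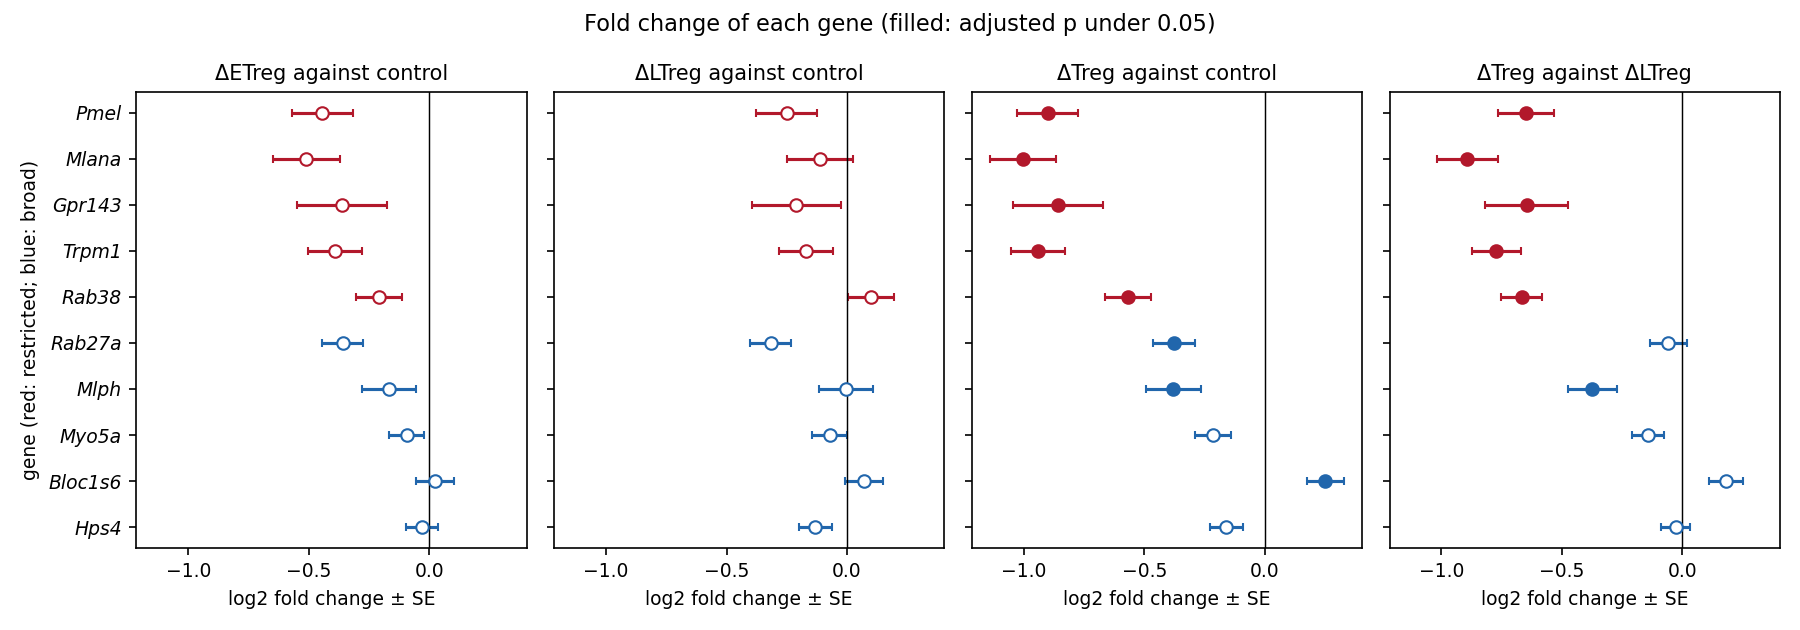
Log2 fold change with its SE (horizontal axis) of each member (vertical axis; restricted genes in red, broad genes in blue) in 4 comparisons; filled points have an adjusted p under 0.05. Filled points appear only in the panels with ΔTreg skin, and Rab27a lies between -0.38 and -0.32 against control in the 3 depleted groups and at -0.06 between ΔTreg and ΔLTreg.

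The 2 windows were also compared directly. Between ΔETreg and ΔLTreg skin, which also differ in age, no member was called, against 6.38% of all genes. Mlana (log2 fold change -0.40, SE 0.12, adjusted p = 0.0834) and Rab38 (-0.31, SE 0.08, adjusted p = 0.0555) were lower in ΔETreg skin at an unadjusted p under 0.05, against 12.1% of all genes. These 2 of 10 members were also wholly lower there, as were 2517 of all 18375 genes. DESeq2 fitted to all libraries called both (adjusted p = 0.0308 and 0.0286), and 9.60% of all genes with an adjusted p. Against ΔTreg skin, again of another age, ΔETreg skin had higher Pmel, Mlana, Trpm1 and Rab38 (log2 fold changes of 0.46, 0.49, 0.55 and 0.36), 4 of 10 members against 9.81% of all genes. Bloc1s6 was lower there (-0.23, adjusted p = 0.0344), against 13.2% of all genes called lower, and Gpr143 was not called (0.50, SE 0.17, adjusted p = 0.0608). The call of Bloc1s6 was lost with both DESeq2 fits, library size, the loose filter and the sex term (adjusted p = 0.0811, 0.0607, 0.0984, 0.116 and 0.0590). Gpr143 was called by DESeq2 and by edgeR on the 2 groups and with the loose filter (adjusted p = 0.0403, 0.0331 and 0.0139), which called 21.7%, 30.7% and 12.2% of all genes. For Pmel, Mlana, Trpm1 and Gpr143 the group means fell in the order control, ΔLTreg, ΔETreg and ΔTreg. Neighbours in that order were called different by edgeR over all libraries only at the last step, and there not for Gpr143.

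Each member was also set against the melanin enzyme and transporter genes of the same mouse, as its log2 CPM minus the mean log2 CPM of Tyr, Tyrp1, Dct, Slc45a2, Oca2 and Slc24a5, which cancels a loss shared by both. For Pmel, Mlana, Gpr143 and Trpm1 the differences in ΔTreg against control were -0.02, -0.11, 0.05 and -0.06 on the log2 scale, with no overlap for Trpm1 alone. In ΔTreg against ΔLTreg mice they were 0.07, -0.17, 0.09 and -0.05, with no overlap for Pmel, Mlana and Trpm1. In ΔLTreg against control mice that of Pmel was -0.08, also with no overlap. Rab38 was 0.32 higher relative to them in ΔTreg, 0.27 in ΔLTreg and 0.20 in ΔETreg than in control mice, with no overlap in any of the 3. Tyrp1, itself a reference gene, had a log2 fold change of -0.59 in ΔTreg against control skin, beside -0.57 for Rab38. In ΔLTreg against control skin Tyrp1 and Rab38 stood at -0.000136 and 0.10, and in ΔETreg at -0.36 and -0.21. Relative to the melanin enzyme and transporter genes, Rab27a and Mlph were each 0.51 higher in ΔTreg than in control mice, Myo5a 0.67, Hps4 0.72 and Bloc1s6 1.13. In ΔTreg against ΔLTreg mice, Rab38 was 0.05 higher, Mlph 0.35, Myo5a 0.57, Rab27a 0.65, Hps4 0.69 and Bloc1s6 0.89. The reference genes themselves fell in ΔTreg skin (median log2 fold change -0.93 against control and -0.74 against ΔLTreg). Any gene that fell less therefore rises on this scale, which shows no gain of its RNA. On their own scale the 5 broad genes ran from -0.38 to 0.25 in ΔTreg against control skin. In ΔLTreg mice, Rab27a was 0.15 lower than in control relative to the melanin enzyme and transporter genes, and the groups overlapped. The two-sided exact permutation test over mice gave at best p = 0.2 against 2 controls and p = 0.1 between groups of 3, the least that these numbers of mice allow. Over the 40 tests (10 members in 4 comparisons) the smallest adjusted value was 0.333. The share of all genes without overlap on this scale was not computed, so the separations above are description only.

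**Figure D3:**
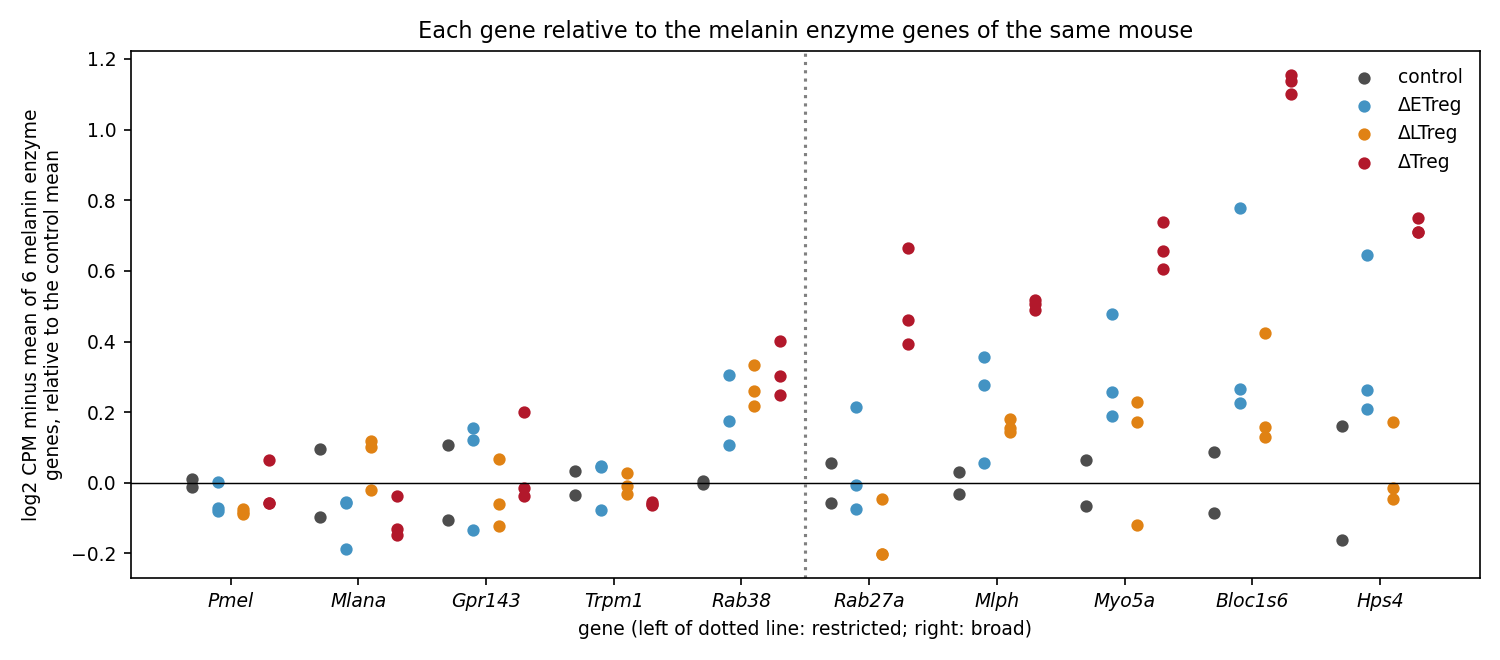
Log2 CPM of each member minus the mean log2 CPM of 6 melanin enzyme and transporter genes in the same mouse, drawn relative to the control mean (vertical axis), with 1 point per mouse. The means of Pmel, Mlana, Gpr143 and Trpm1 lie between -0.11 and 0.07 in the depleted groups. The broad genes rise to between 0.51 and 1.13 on average in ΔTreg mice, where the 6 reference genes fell.

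As a description over the 11 libraries, which share 4 groups, Trpm1, Mlana and Gpr143 ranked 2nd, 6th and 8th by Pearson correlation of log2 CPM with Pmel among 13896 genes with a mean count of at least 50 (r = 0.986, 0.971 and 0.963). Mlph ranked 24th (r = 0.921) and Rab38 32nd (r = 0.906). Myo5a (r = 0.791), Rab27a (r = 0.732) and Hps4 (r = 0.480) ranked lower, and Bloc1s6 varied the other way (r = -0.778). The 8 genes outside the members that varied most like Pmel were Dct, Tyr, Slc24a5, Slc45a2, Oca2, Ptgds, Sox10 and Epdr1, with r from 0.952 to 0.996.

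The rest of the melanosome machinery, 34 genes, was listed from general knowledge. In ΔTreg against control skin 3 of the 34 were called lower, against 9.39% of all genes, 1 higher, against 12.1%, and 30 neither, with a median log2 fold change of 0.03. Bloc1s5, another subunit of BLOC-1 and the product of the muted locus, was lower (11.1 against 15.1 CPM, log2 fold change -0.44, SE 0.08, adjusted p = 0.00265). It was also lower in ΔTreg than in ΔLTreg skin (-0.26, SE 0.07, adjusted p = 0.0289). Sytl2, a RAB27A effector, was lower (-0.19, SE 0.06, adjusted p = 0.0349), as was Kif13a, the kinesin that carries cargo to melanosomes (-0.26, SE 0.08, adjusted p = 0.0448). Tpcn2, a cation channel of lysosomes and melanosomes, was higher against control (0.34, SE 0.07, adjusted p = 0.0053) and against ΔLTreg skin (0.38, SE 0.06, adjusted p = 0.00158). By family, 1 of 7 other BLOC-1 genes, 0 of 4 other BLOC-2 and BLOC-3 genes, 0 of 5 AP-3 and HOPS genes, 1 of 10 Rab and effector genes and 2 of 8 cargo, fusion and channel genes were called in either direction, against 21.5% of all genes. In ΔETreg against control skin none of the 34 was called by edgeR, and 3 were lower at an unadjusted p under 0.05, against 2.18% of all genes: Cd63, which sorts PMEL fragments (log2 fold change -0.24), Bace2, which cleaves PMEL (-0.22), and Bloc1s5 (-0.18).

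**Figure D4:**
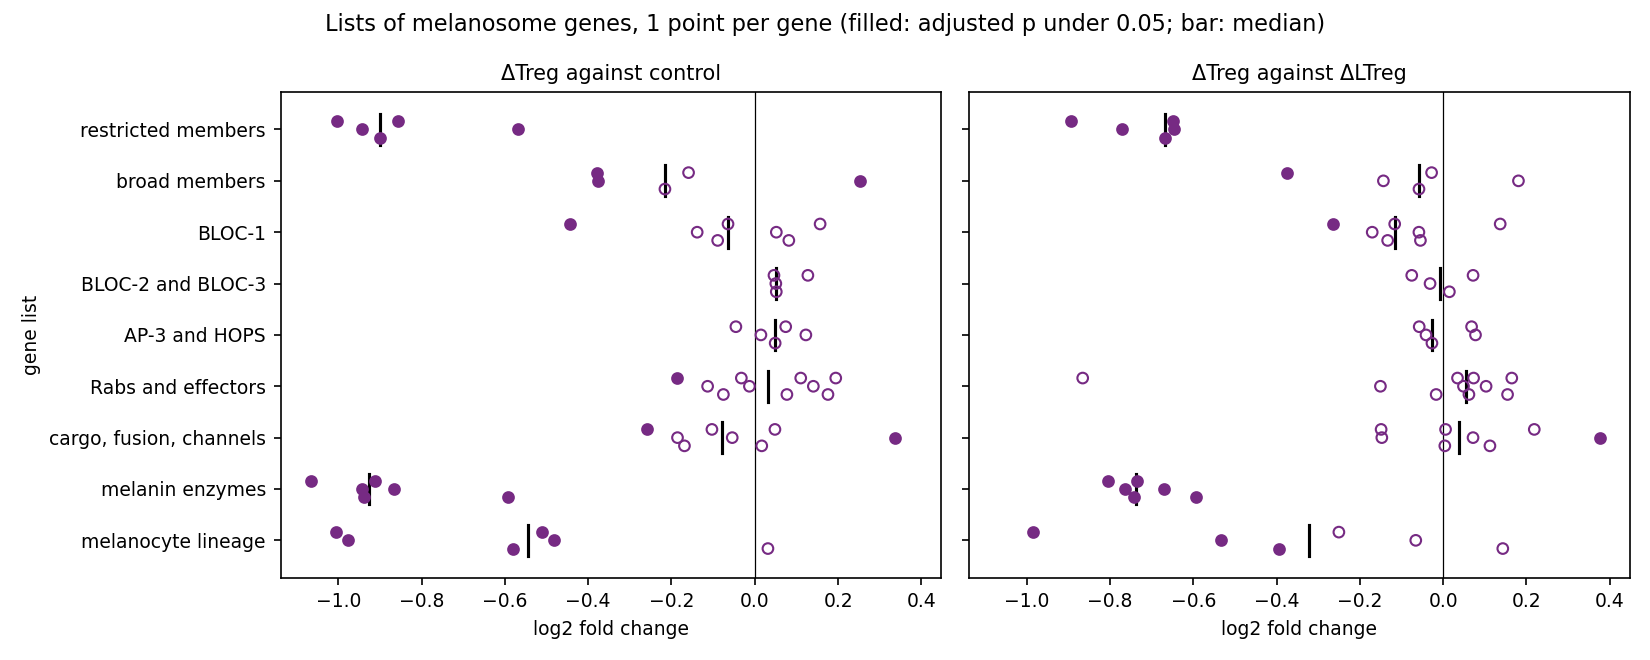
Log2 fold change (horizontal axis) of each gene of 9 lists (vertical axis) in ΔTreg against control and against ΔLTreg skin; filled points have an adjusted p under 0.05 and the bar is the list's median. The restricted members (median -0.90 against control) lie with the melanin enzymes (-0.93), and the lists of the general machinery are centred near 0.

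Markers of other cells moved in the same samples. The melanin enzyme and transporter genes were called lower in ΔTreg against control skin in 6 of 6 cases, but this list was chosen by the study on these mice and is no independent evidence. Of 6 melanocyte lineage genes 5 were called lower, against 9.39% of all genes, among them Mc1r (-1.01, SE 0.17, adjusted p = 0.00148) and Ednrb (-0.98, SE 0.17, adjusted p = 0.00205). Mitf was not called, at 55.0 CPM in ΔTreg and 53.8 in control skin (0.03, SE 0.10, adjusted p = 0.854). In ΔTreg against ΔLTreg skin 3 of the 6 were called lower, against 6.11% of all genes. Ednrb, which other skin cells also express, was also called lower in ΔLTreg against control skin (-0.91, SE 0.17, adjusted p = 0.0144), and its difference between ΔTreg and ΔLTreg was -0.07 (SE 0.15, adjusted p = 0.817). All 6 cytotoxic lymphocyte genes were called higher in ΔTreg against control skin, against 12.1% of all genes. Their summed level was 59.2 to 67.4 CPM in ΔTreg mice, against 5.81 to 7.85 in control, 5.57 to 7.26 in ΔETreg and 9.61 to 10.997 in ΔLTreg mice. Gzmb, the granzyme B gene, averaged 25.8 CPM in ΔTreg and 0.0525 in control skin. Of 6 myeloid genes, 4 of the 5 tested were called higher, against the same 12.1% of all genes. The sum of the list was 156 to 191 CPM against 81.5 to 94.9 in control, 60.0 to 86.6 in ΔETreg and 51.2 to 102 in ΔLTreg mice. Among structural cells, 1 of 5 basal keratinocyte genes (Krt14) and 1 of 5 Schwann cell genes (Egr2) were higher, and 1 of the 5 hair matrix genes tested (Lef1) was lower. Over all genes 12.1% were called higher and 9.39% lower, so 1 of 5 sets none of these lists apart. The part of these cells in the values of the broad members was not tested.

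Promoter windows of 250 bases before to 50 after each start site (RefSeq, GRCm38.p6) matched 5 of the 10 members, with 7 windows in all; Pmel, Mlana, Gpr143, Rab38 and Bloc1s6 were not matched. They were searched on both strands for the M-box core TCATGTG and the shorter E-box CATGTG contained in it, and for the E-box CACGTG, letters that MITF, the master regulator of melanocytes, is known to bind. TCATGTG was found in 3.77%, CATGTG in 14.2% and CACGTG in 7.15% of all 32851 windows. Shown are the 5′ start of Trpm1, the restricted member with a window, which holds TCATGTG 142 bases upstream of the start, and the windows of Mlph and Rab27a with CACGTG, 48 and 246 bases upstream, 2 transport genes of which Mlph was called lower in ΔTreg than in ΔLTreg skin and Rab27a was not. The second start of Trpm1 held CACGTG and CATGTG, and the windows of Myo5a, Hps4 and the first start of Rab27a held none of the 3. Capitals mark the matches, which are a description of letters and not binding sites.
Trpm1 (chr7:64153585-64153884, plus strand): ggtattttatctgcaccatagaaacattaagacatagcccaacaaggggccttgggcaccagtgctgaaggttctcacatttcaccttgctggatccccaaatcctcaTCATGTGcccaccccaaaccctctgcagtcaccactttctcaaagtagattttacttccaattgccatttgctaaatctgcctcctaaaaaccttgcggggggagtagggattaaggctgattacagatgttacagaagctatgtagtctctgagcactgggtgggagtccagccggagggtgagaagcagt
Mlph (chr1:90914850-90915149, plus strand): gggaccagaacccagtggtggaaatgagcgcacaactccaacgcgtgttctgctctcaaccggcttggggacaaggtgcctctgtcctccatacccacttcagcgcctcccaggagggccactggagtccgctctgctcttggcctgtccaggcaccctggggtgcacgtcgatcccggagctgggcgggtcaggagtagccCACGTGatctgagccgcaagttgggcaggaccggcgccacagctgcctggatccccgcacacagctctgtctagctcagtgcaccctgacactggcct
Rab27a, second start (chr9:73063898-73064197, plus strand): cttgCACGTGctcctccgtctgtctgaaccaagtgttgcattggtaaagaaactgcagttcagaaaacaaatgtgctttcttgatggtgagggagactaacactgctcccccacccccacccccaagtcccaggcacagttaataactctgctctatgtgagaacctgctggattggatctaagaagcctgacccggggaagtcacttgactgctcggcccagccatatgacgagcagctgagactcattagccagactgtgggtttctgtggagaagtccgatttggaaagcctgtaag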

How the data were processed

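Bulk RNA-seq was performed by the authors on whole skin biopsies of 11 mice. Per the labels, reads were trimmed with Trimmomatic 0.36, mapped to GRCm38 with STAR 2.5.2b and counted on exons with featureCounts (Subread 1.5.2); strand use and the annotation release are not given in the sources used here. The authors deposited these read counts per gene, raw and unfiltered. Groups were read from the labels, all of which name 1 batch. The labels name no litters, so p-values measure the spread between these mice.

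Counts were analysed with edgeR 4.0.16 in R 4.3.3. Genes were filtered by filterByExpr, scaled by TMM and fitted with 1 mean per group over all libraries; 6 pairs of groups were compared by its quasi-likelihood test, with p-values adjusted over 18375 genes by the method of Benjamini and Hochberg. An SE was taken as the log2 fold change over the root of the F statistic. Log2 CPM used a prior count of 2. Ratios to the melanin genes were compared by an exact permutation test in SciPy. The study used DESeq2; here DESeq2 1.42.0 was an alternative, as were other scalings and filters, a term for sex, and fits without 1 mouse. Gene models came from GENCODE M21. Both tools were tested on data simulated for ΔTreg against control with the spread that edgeR had estimated. False calls stayed near the threshold with edgeR and exceeded it with DESeq2. There edgeR was fitted to all libraries and DESeq2 to the 2 groups alone, so the simulation cannot rank the tools. Reads carry no molecular identifiers, so counting error is a lower limit of the noise.

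The members and lists were chosen with earlier results of these data known. Genes named were the members, the 2 genes with the smallest p of each list in ΔTreg and in ΔETreg against control, from which a few are printed, and the 8 most correlated with Pmel. Foxp3, Tyrp1 and Mitf were named outside this rule, Mitf as the 1 lineage gene not called in ΔTreg against control skin. Ly6g was not tested and Krt85 was not matched to a row.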

Additional observations from a re-analysis of the deposited data

How the results depend on the processing

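In ΔTreg against ΔLTreg and ΔTreg against control skin, the number of called members stayed within 1.5 times its value of 6 and 8 under every change of tool, scaling, filter and covariate. No paired analysis was possible because replicate numbers were given in order of deposit and pair no mice. With each mouse left out in turn, 2 to 5 members were called in ΔETreg against ΔTreg, where 5 were called with all mice. There were 2 without the first ΔETreg mouse and 3 without the third ΔTreg mouse. Over all genes 3065 of 18429 to 3404 of 18248 were called in those fits. In ΔETreg against ΔLTreg 0 to 1 members were called (Rab38, without the first ΔETreg mouse), and 353 of 18231 to 1172 of 18281 over all genes. Keeping all genes with at least 1 count called 3 members in ΔETreg against control, 1 in ΔLTreg against control and 2 in ΔETreg against ΔLTreg, in place of 0. DESeq2 on all libraries called 1 in ΔLTreg against control and 2 in ΔETreg against ΔLTreg, and on the 2 groups alone 1 in the latter. Over all genes, calls in ΔETreg against control were 1 in the reported fit, 54 with the loose filter, 17 and 10 with DESeq2 on 2 groups and on all libraries, and 0 in 3 fits; those in ΔLTreg against control were 836, and 154 to 1790 under the other tools, scalings, filters and the sex term; those in ΔETreg against ΔLTreg were 1173, and 540 to 2173.

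Uncalled values near 0 changed sign: Hps4 in ΔETreg against control was 0.0077 with library size in place of TMM, and Mlph in ΔLTreg against control was 0.015 with library size and 0.0041 with at least 10 counts in every library. With mice left out, log2 fold changes ran from -0.034 to 0.062 for Bloc1s6 and from -0.065 to 0.0076 for Hps4 in ΔETreg against control, and in ΔLTreg against control from -0.32 to 0.13 for Mlana, -0.43 to 0.040 for Gpr143, -0.027 to 0.23 for Rab38 and -0.098 to 0.093 for Mlph. Relative to the melanin genes, the number of members whose values did not overlap between ΔLTreg and control mice was 4 with all mice and 5 to 7 with 1 left out, since fewer mice overlap less. No share over all genes was computed beside these counts. Of 290 alternative values of these ratios 20 changed sign, all for differences of at most 0.067 on the log2 scale. The cause of these changes was not tested. Every member had at least 110 counts in each library, and 3 of the comparisons rest on the same 2 control mice.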
